A study of Solanum lycopersicum with 9 samples.

Results

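Expression of 8 genes that drive or brake the plant cell cycle was examined in RNA-Seq data of tomato (Solanum lycopersicum). They comprised the cyclin-dependent kinase (CDK) genes CDKA1 (Solyc08g066330), CDKB1 (Solyc10g074720) and CDKB2 (Solyc04g082840), the mitotic cyclin gene CYCB2;1 (Solyc02g082820), the D-type cyclin genes CYCD3;1 (Solyc02g092980) and CYCD3;3 (Solyc04g078470), and the endocycle-related genes WEE1 (Solyc09g074830) and CCS52A (Solyc08g080080). The cyclin genes are written CYCB2-1, CYCD3-1 and CYCD3-3 from here on. The genes were listed by ID, with no threshold on their levels, but with earlier results of these data known. They make up 9 of the 33989 gene models of the deposited table, because CYCB2-1 has 2 gene models and each other gene has 1. The table gives IDs without names, so the names are those of the list of IDs. A RefSeq gene table (assembly SLM_r2.1) holds a symbol for all 8 genes, each on the chromosome that the ID states, but pairs none of its symbols with an ID of the file.

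The study compared WRKY-B-GFP tomato plants, which carry a 35S::WRKY-B-GFP transgene driven by a general promoter, with wild-type plants to ask how the transcription factor WRKY-B acts on axillary buds. The 9 libraries fall into 3 sets of 3, named OE (OE1, OE30 and OE9), CK1 and CK2, and OE was taken as the WRKY-B-GFP set. The labels give CK1 as buds of the cultivar monomaker, CK2 as buds of Compound raceme and OE as flowers of Compound raceme, whereas the paper describes axillary buds of Ailsa Craig in all plants and only 1 wild-type set. By the labels, transgene and tissue cannot be told apart in OE against CK2, nor can transgene, tissue and cultivar in OE against CK1. By the methods of the paper, wild type and WRKY-B-GFP each had 3 biological replicates, each a pool of plants. The sources used here do not say which CK set is that wild type, how the libraries of the other CK set were sampled, or whether OE1, OE30 and OE9 are separate transgenic lines. The p-values therefore measure the spread between these libraries.

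CDKs are the engine of the cell cycle and work only when bound to a cyclin. CDKA acts at entry into DNA synthesis and into mitosis, whereas the plant-specific B-type CDKs and the B-type cyclins are made mainly around G2 and mitosis and are markers of dividing cells. D-type cyclins bring growth and hormone signals to CDKA and lead to inactivation of the retinoblastoma-related protein. WEE1 phosphorylates CDKs and holds them inactive. CCS52A activates the anaphase-promoting complex (APC/C), which destroys mitotic cyclins, and it leads cells from division into the endocycle, in which DNA is copied without mitosis. WEE1 and CCS52A are known in tomato for their part in the endocycles that accompany the enlargement of fruit cells.

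Levels were given by the authors as FPKM, fragment numbers scaled to transcript length and to the mapped fragments of the library, which can be compared between genes within a library. The depth of sequencing is unknown, because the table carries no read totals. FPKM summed to 743707 to 769380 per CK library and 615715 to 684351 per OE library. WRKY-B (Solyc02g071130), the gene carried by the transgene, was at 74.0, 93.5 and 205.7 FPKM in OE1, OE30 and OE9. In the 6 CK libraries it was at 0.08 to 0.87 FPKM. The labelled tissues could not be checked, as no table used here pairs a marker gene of bud, flower or leaf with an ID of the file. In whole tissue, fewer dividing cells and less RNA per cell cannot be told apart.

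CDKB2, a kinase gene of G2 and mitosis, had the largest fold change between the CK sets among these genes. It was at 74.0, 70.5 and 73.2 FPKM in the CK1 libraries and at 8.93, 8.67 and 8.76 FPKM in the CK2 libraries. In the OE libraries it was at 6.95, 1.52 and 23.7 FPKM in OE1, OE30 and OE9. Every CK1 library thus lay above every other library, whereas CK2 fell between the OE libraries. CDKB1, the other B-type kinase gene, was at 29.3, 29.6 and 30.5 FPKM in CK1 and at 5.99, 7.63 and 5.34 FPKM in CK2. In OE it was at 4.59, 4.11 and 12.1 FPKM in OE1, OE30 and OE9. As for CDKB2, CK1 did not overlap the other sets and OE9 stood above CK2 while OE1 and OE30 stood below it.

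CYCB2-1, a B-type cyclin gene, was found almost only as the gene model Solyc02g082820.3.1 (SL3.0 chromosome 2, 47024618 to 47029901, plus strand). That model was at 4.20, 3.87 and 4.00 FPKM in CK1, at 0.58, 0.56 and 0.62 FPKM in CK2, and at 0.12, 0.01 and 1.17 FPKM in OE1, OE30 and OE9. The second model, Solyc02g082820.3, was at 0.08 FPKM in 1 CK1 library and listed at 0 in the other 8 libraries, so it was not tested. The levels of CYCB2-1 in OE1 and OE30 are near the lowest value the table can hold, and fold changes against them depend on the constant added before taking logarithms.

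CDKA1 (SL3.0 chromosome 8, 54931414 to 54948635, plus strand), the kinase gene used throughout the cycle, varied least. Its level was 35.7, 33.5 and 35.3 FPKM in CK1, 27.0, 27.4 and 26.5 FPKM in CK2, and 43.1, 36.3 and 51.5 FPKM in OE1, OE30 and OE9. No sets overlapped, with OE highest and CK2 lowest, but the highest library was only 1.95 times the lowest, against 48.7 times for CDKB2.

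Of the D-type cyclin genes, CYCD3-1 was at 71.2, 71.6 and 74.3 FPKM in CK1, 21.5, 24.4 and 22.3 FPKM in CK2, and 53.1, 37.6 and 76.3 FPKM in OE1, OE30 and OE9. OE therefore lay above the range of CK1 in OE9, below it in OE1 and OE30, and above CK2 in all its libraries. CYCD3-3 was at 93.4, 101.3 and 102.8 FPKM in CK1, 26.9, 25.9 and 25.9 FPKM in CK2, and 22.6, 13.6 and 47.3 FPKM in OE1, OE30 and OE9. It resembled CYCD3-1 in the CK sets, but its OE libraries lay on either side of CK2.

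WEE1, the inhibitory kinase gene, was low throughout, at 2.61, 2.63 and 2.2 FPKM in CK1, 0.68, 0.50 and 0.73 FPKM in CK2, and 0.62, 0.42 and 1.19 FPKM in OE1, OE30 and OE9. Like the B-type kinase genes, it was highest in CK1. CCS52A, the activator of the APC/C, was at 11.2, 13.3 and 11.01 FPKM in CK1, 17.3, 17.6 and 17.7 FPKM in CK2, and 3.75, 2.07 and 4.46 FPKM in OE1, OE30 and OE9. It was the one gene of the 8 with its highest level in CK2 in every library of that set, and its 3 sets did not overlap.

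**Figure D1:**
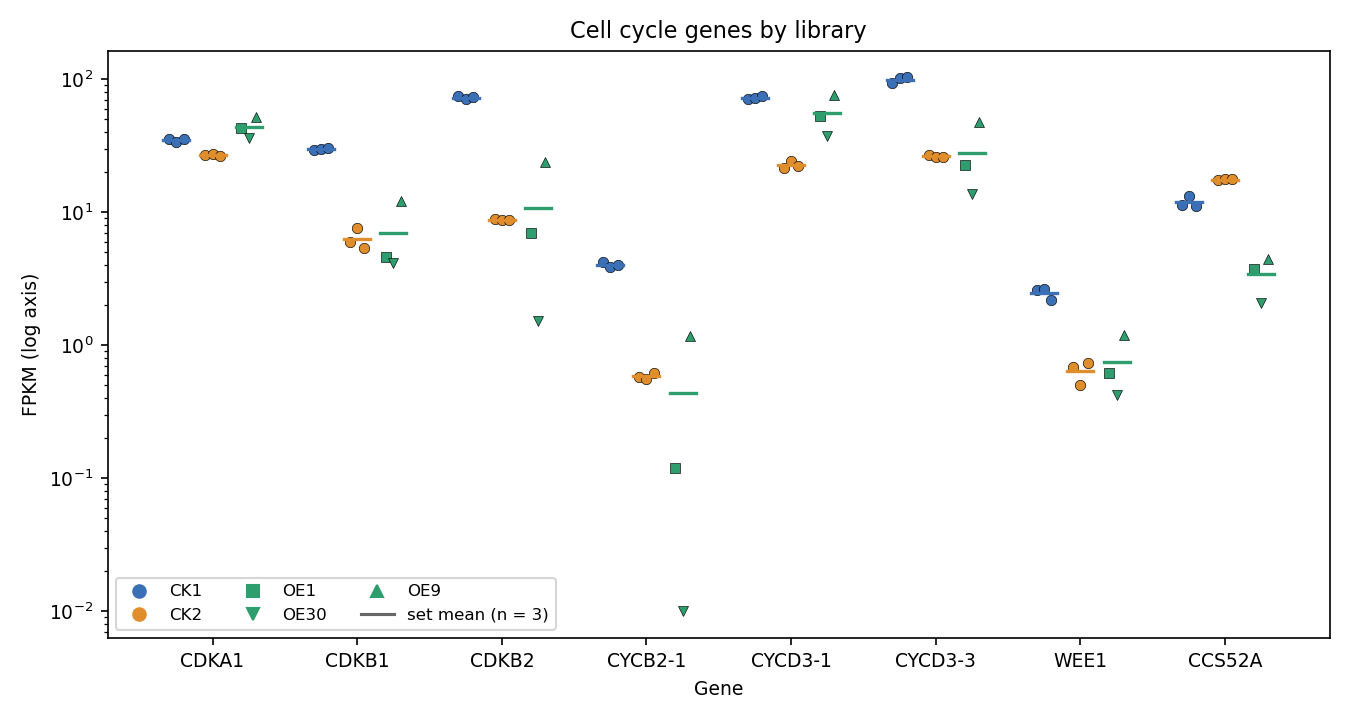
FPKM (log axis) of the 8 genes in each of the 9 libraries, coloured by set, with a bar at the mean of each set of 3 and a marker shape for each OE library. CK1 lies highest for CDKB1, CDKB2, CYCB2-1, CYCD3-3 and WEE1, CCS52A is highest in CK2 and lowest in OE, and OE9 is above OE1 and OE30 for every gene.

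The order of the genes by level changed between the sets. CYCD3-3 led in CK1 (99.2 ± 5.05 FPKM, SD, n = 3), followed by CDKB2 (72.6 ± 1.85 FPKM, SD, n = 3) and CYCD3-1 (72.4 ± 1.68 FPKM, SD, n = 3), whose libraries overlapped, and then by CDKA1 (34.8 ± 1.13 FPKM, SD, n = 3) and CDKB1 (29.8 ± 0.662 FPKM, SD, n = 3). In CK2, CDKA1 (27.0 ± 0.456 FPKM, SD, n = 3) and CYCD3-3 (26.2 ± 0.587 FPKM, SD, n = 3) led with overlapping libraries, and CCS52A (17.5 ± 0.221 FPKM, SD, n = 3) stood above CDKB2 (8.79 ± 0.132 FPKM, SD, n = 3). In OE, CYCD3-1 (55.7 ± 19.5 FPKM, SD, n = 3) and CDKA1 (43.6 ± 7.62 FPKM, SD, n = 3) led and overlapped, while CCS52A was at 3.43 ± 1.23 FPKM (SD, n = 3) and CDKB2 at 10.7 ± 11.6 FPKM (SD, n = 3), again with overlap. WEE1 and CYCB2-1 were the lowest genes in each set.

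The labels describe the CK sets as buds of different cultivars. Their comparison gave a smaller standard error for each of the 8 genes than either comparison with OE. The test was limma-trend, applied to log2(FPKM + 0.1) of all gene models that reached 0.5 FPKM in 3 or more libraries. Calling a gene model required a Benjamini-Hochberg adjusted p below 0.05 together with a change of at least 2 times. In CK2, 6 of the 8 genes were called lower than in CK1 and 0 were called higher, where 14.0% of all gene models tested were called lower and 13.0% higher. CDKB2 fell by 3.03 on the log2 scale (standard error 0.04, adjusted p = 1.25e-08 from limma), CYCB2-1 fell by 2.59 (standard error 0.13, adjusted p = 3.16e-06 from limma) and CDKB1 fell by 2.23 (standard error 0.12, adjusted p = 5.26e-06 from limma). These genes of G2 and mitosis had the largest fold changes among the 8 with this added constant of 0.1. CYCD3-3 fell by 1.91, WEE1 fell by 1.82 and CYCD3-1 fell by 1.67, with adjusted p from 1.20e-07 to 0.000117 (limma). For the low genes the size depended on the constant added, and with log2(FPKM + 1) the log2 fold change was −1.66 for CYCB2-1, then smaller than the −1.88 of CYCD3-3, and −1.09 for WEE1.

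The other genes changed by less than the required fold between the CK sets. CDKA1 had a log2 fold change of −0.37 (95% interval −0.46 to −0.27, adjusted p = 0.000156 from limma) and CCS52A of 0.57 (95% interval 0.38 to 0.75, adjusted p = 0.000580 from limma). CCS52A was the only one of the 8 with a higher level in CK2. The libraries of the CK sets did not overlap for any of the 8 genes, but the same held for 74.0% of all gene models tested, and an exact permutation test of 3 libraries against 3 cannot go below p = 0.1. The median log2 fold change was −1.87 over the 8 genes and −0.23 over all 25268 gene models tested. Scaling the libraries by their median ratio moved the latter by 0.22 and left all 6 calls.

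OE against CK1, which differ in transgene and, by the labels, in tissue and cultivar, gave lower levels for the B-type kinase genes, CYCB2-1, CYCD3-3, WEE1 and CCS52A. In OE 6 of the 8 genes were called lower and 0 higher, where 21.8% of all gene models tested were called lower and 17.5% higher. CDKB1 fell by 2.26 on the log2 scale (standard error 0.40, adjusted p = 0.00326 from limma), CDKB2 fell by 3.49 (standard error 0.90, adjusted p = 0.0150 from limma) and CYCB2-1 fell by 3.72 (standard error 0.86, adjusted p = 0.00996 from limma). The size for CDKB2 and CYCB2-1 depended on single OE libraries. For CDKB2 the log2 fold change was −2.49 without OE30 and −4.43 without OE9, and for CYCB2-1 it was −2.96 and −4.73. With log2(FPKM + 1) it was −1.90 for CYCB2-1 and −1.02 for WEE1, and with log2(FPKM + 0.01) it was −4.79 for CYCB2-1.

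CYCD3-3 fell by 2.02 (standard error 0.42, adjusted p = 0.00668 from limma), WEE1 fell by 1.71 (standard error 0.36, adjusted p = 0.00688 from limma) and CCS52A fell by 1.82 (standard error 0.29, adjusted p = 0.00213 from limma). The log2 fold change of CYCD3-1 was −0.44 (95% interval −1.03 to 0.16, adjusted p = 0.163 from limma) and that of CDKA1 was 0.31 (95% interval −0.02 to 0.64, adjusted p = 0.0885 from limma), and neither passed. The OE and CK1 libraries did not overlap for 7 of the 8 genes, all but CYCD3-1, against 71.6% of all gene models. The median log2 fold change was −1.92 over the 8 genes and 0.01 over all 24448 gene models tested. This comparison shares the CK1 libraries with that of the CK sets, so their values are not independent.

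**Figure D2:**
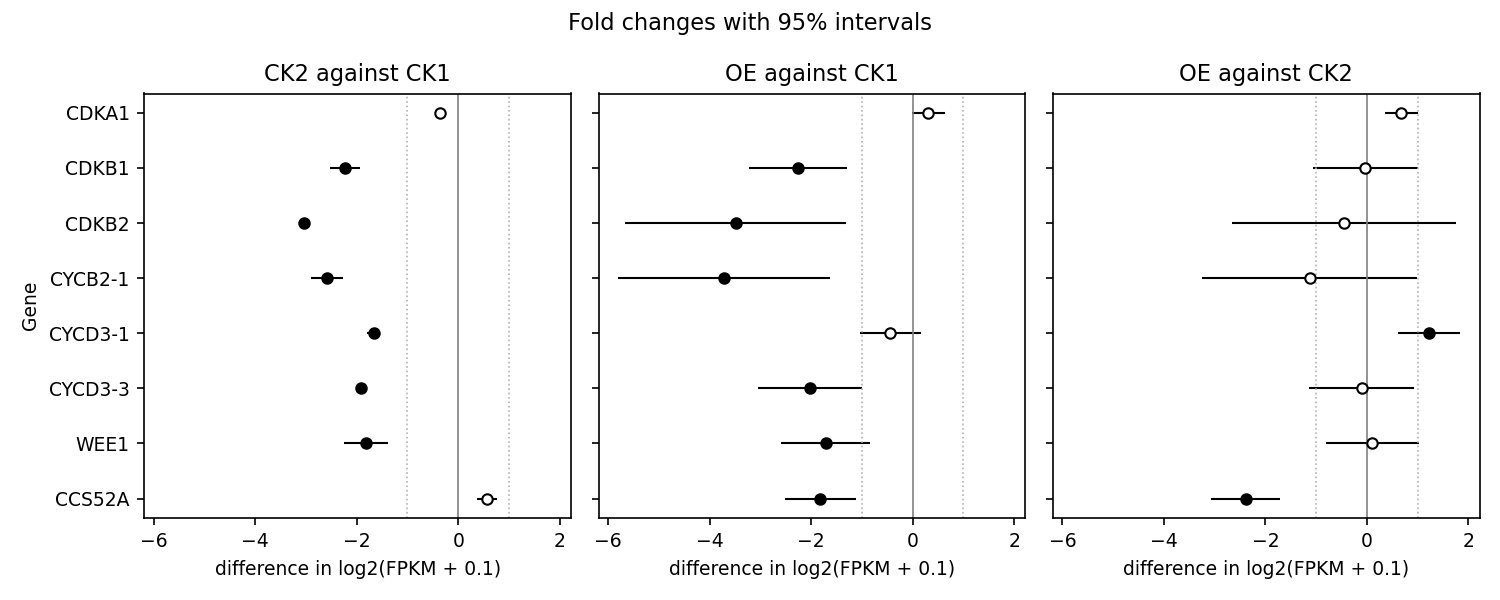
Differences between set means of log2(FPKM + 0.1) for the 8 genes in the 3 comparisons, with 95% intervals from limma, filled where called and open where not, and dotted lines at a fold change of 2. CDKB1, CDKB2, CYCB2-1, CYCD3-3 and WEE1 are filled on the lower side in both comparisons with CK1 and open in OE against CK2, where CYCD3-1 is filled on the higher side and CCS52A on the lower side.

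Relative to CK2, which the labels place in the same cultivar as OE but in another tissue, 1 of the 8 genes was called higher in OE and 1 was called lower, where 25.8% of all gene models tested were called higher and 23.2% lower. The gene called higher was CYCD3-1, whose level rose by 1.23 on the log2 scale (standard error 0.25, adjusted p = 0.00506 from limma). This call was lost at the fold threshold with median-ratio scaling (0.92, adjusted p = 0.0116 from limma) and without OE9 (0.97, adjusted p = 0.00448 from limma). The gene called lower was CCS52A, which fell by 2.39 (standard error 0.28, adjusted p = 0.000441 from limma) and was lower in all 3 OE libraries than in any CK library. Its call held in all alternatives tried.

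The remaining 6 genes did not pass against CK2. CDKA1 had a log2 fold change of 0.68 (95% interval 0.35 to 1.01, adjusted p = 0.00476 from limma), below the fold threshold. Intervals were wide for CDKB1 (−0.03, 95% interval −1.06 to 1.00), CYCD3-3 (−0.10, −1.14 to 0.93) and WEE1 (0.10, −0.82 to 1.02). A fall of 2 times was thus not excluded for CDKB1 and CYCD3-3, nor a rise of about 2 times for CDKB1 and WEE1. The intervals were wider for CDKB2 (−0.46, −2.66 to 1.75) and CYCB2-1 (−1.13, −3.24 to 0.98). The value for CYCB2-1 was −0.23 with log2(FPKM + 1) and −2.04 with log2(FPKM + 0.01). Without OE9 it was −2.14 and the gene was called lower (adjusted p = 0.00532 from limma), whereas without OE30 it was −0.38 (adjusted p = 0.670 from limma). In the fit without OE9, CYCB2-1 reached 0.5 FPKM in the CK2 libraries alone, with OE1 and OE30 at 0.12 and 0.01 FPKM. The OE and CK2 libraries did not overlap for 3 of the 8 genes, CDKA1, CYCD3-1 and CCS52A, against 75.0% of all gene models. The median log2 fold change was −0.07 over the 8 genes and 0.17 over all 24905 gene models tested, and median-ratio scaling moved the latter by 0.32.

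Much of the width of these intervals came from differences between the OE libraries. Within CK1 the coefficient of variation of the 8 genes was 2.22% to 10.7%, beside a median of 6.04% over the 21719 gene models whose mean reached 1 FPKM. In CK2 it was 1.26% to 18.7% over the 6 genes that reached that mean, beside a median of 7.28%. In OE, again over the 6 genes with a mean of at least 1 FPKM, it was 17.5% for CDKA1, 35.1% for CYCD3-1, 35.8% for CCS52A, 62.7% for CYCD3-3, 64.6% for CDKB1 and 107.8% for CDKB2, beside a median of 19.4%. Below that level it was 53.8% for WEE1 and 147.8% for CYCB2-1. CDKA1 was the least variable of the 8 genes in OE, and CYCB2-1 and CDKB2 were the most variable.

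All 8 genes had the same order of the OE libraries, highest in OE9, then OE1 and lowest in OE30. The order was picked after the values were seen. It was found in 24.8% of the 26296 gene models with at least 0.5 FPKM in 3 or more libraries. It held for all 8 genes when libraries were scaled by their median ratio or to an equal sum of FPKM. OE9 exceeded OE30 by 1.42 times for CDKA1, 2.03 times for CYCD3-1 and 2.16 times for CCS52A. It did so by 2.94 times for CDKB1, 3.48 times for CYCD3-3 and 15.6 times for CDKB2. The median was 1.09 times over the 20589 gene models with an OE mean of at least 1 FPKM and OE30 above 0. Below that mean, the value was 2.83 times for WEE1 and 117 times for CYCB2-1, which was at 0.01 FPKM in OE30. WRKY-B was also highest in OE9, but was lower in OE1 than in OE30, so it did not share the order of the 8 genes.

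For 4 of the 8 genes (CDKB1, CDKB2, CYCB2-1 and CYCD3-3), OE9 lay above every CK2 library and both OE1 and OE30 lay below every CK2 library, a pattern picked after the values were seen and found in 2.05% of all 26296 gene models. For the same genes OE9 lay below every CK1 library. WEE1 differed from this pattern only in OE1, which was within the range of CK2. None of the OE libraries of these 4 genes lay within the range of CK2, and their OE means were averages of libraries on either side of it.

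**Figure D3:**
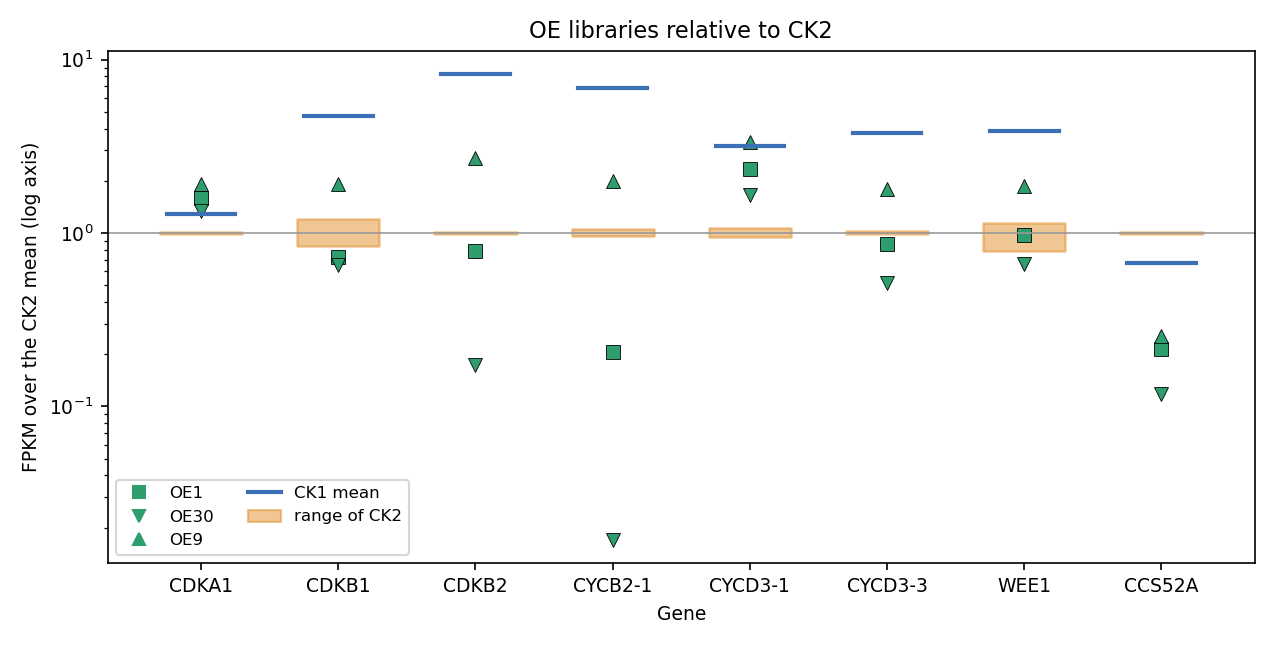
FPKM of each OE library divided by the mean of CK2 (log axis) for the 8 genes, with the range of the CK2 libraries as a band and the CK1 mean as a line. OE9 is above and OE1 and OE30 are below CK2 for CDKB1, CDKB2, CYCB2-1 and CYCD3-3, all OE libraries are above CK2 for CDKA1 and CYCD3-1, and all are below it for CCS52A.

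Plain ratios of FPKM between genes within a library do not depend on how a library is scaled, and 6 ratios were examined. The tests used log2(FPKM + 0.1), where the added constant lets ratios of low genes move with the scaling. The FPKM of CDKB2 was 2.07, 2.101 and 2.08 times that of CDKA1 in CK1 and 0.331, 0.317 and 0.331 times in CK2. In OE the ratio was 0.161 in OE1, 0.0419 in OE30 and 0.460 in OE9. CDKB2 thus exceeded CDKA1 in CK1 only, and the OE libraries lay on either side of CK2. The ratio of CDKB1 to CDKA1 was 0.820 to 0.881 in CK1, 0.202 to 0.279 in CK2, and 0.107 in OE1, 0.113 in OE30 and 0.235 in OE9. The ratio of WEE1 to CDKA1 was 0.0624 to 0.0784 in CK1, 0.0183 to 0.0276 in CK2 and 0.0116 to 0.0231 in OE. For both, OE overlapped CK2 and lay below CK1.

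The D-type cyclin genes exchanged places in OE. The level of CYCD3-1 was 0.707 to 0.763 times that of CYCD3-3 in CK1 and 0.798 to 0.940 times in CK2, but 2.35 times in OE1, 2.77 times in OE30 and 1.62 times in OE9. CYCD3-1 was therefore the lower of the pair in all 6 CK libraries and the higher in all 3 OE libraries. The mean log2 ratio was 1.33 higher in OE than in CK2 and 1.58 higher than in CK1 (exact two-sided permutation test, p = 0.1 for each, the smallest that 3 libraries against 3 allow).

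The ratio of CCS52A, which ends mitotic cycles, to CDKB2, which serves them, separated the sets in another order. The FPKM of CCS52A was 0.151, 0.189 and 0.150 times that of CDKB2 in CK1 and 1.93, 2.03 and 2.02 times in CK2. OE lay between, at 0.540 in OE1, 1.36 in OE30 and 0.188 in OE9, and OE9 was within the range of CK1 as a plain ratio but just above it on the scale tested, log2(FPKM + 0.1). The mean log2 ratio was 3.60 higher in CK2 than in CK1. It was 1.93 lower in OE than in CK2 and 1.67 higher in OE than in CK1 (exact two-sided permutation test, p = 0.1 for each). The difference from CK1 was 0.98 without OE30 and 2.39 without OE9, and that from CK2 was −2.62 without OE30 and −1.21 without OE9. Over the 18 tests of ratios the adjusted p was at least 0.129.

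**Figure D4:**
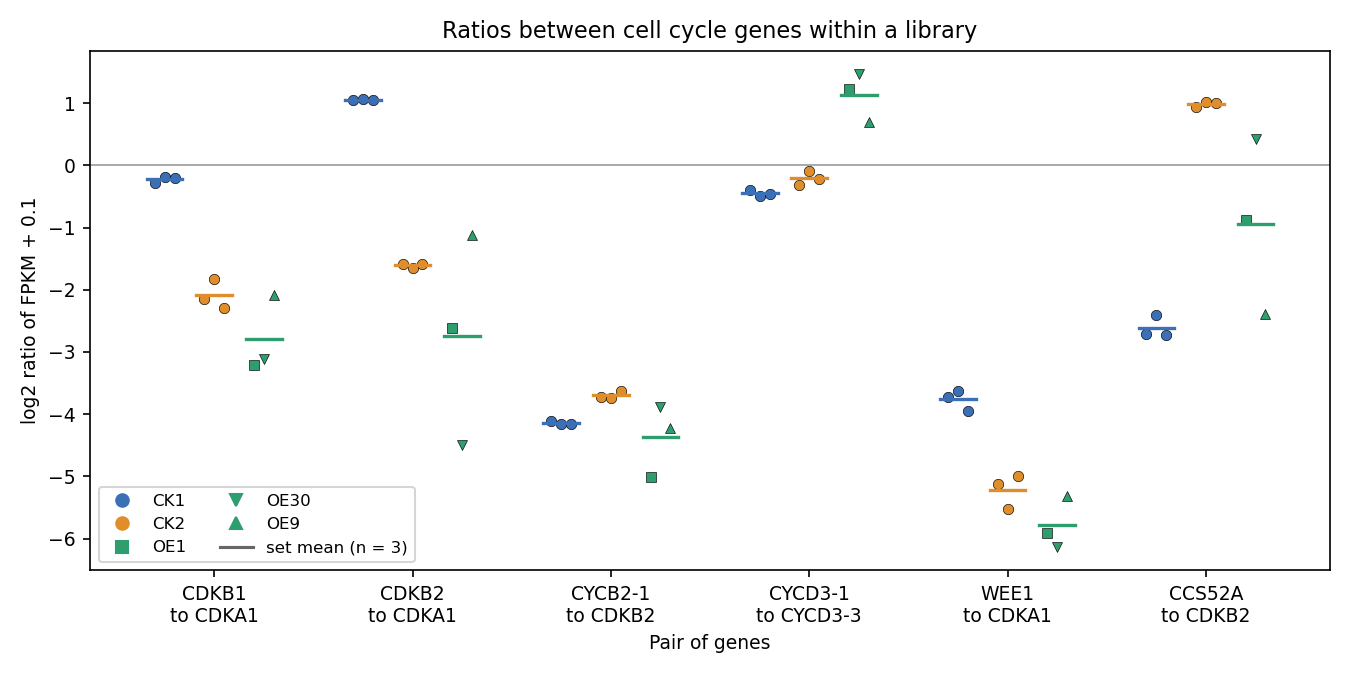
Log2 ratios of FPKM + 0.1 between pairs of the 8 genes within each of the 9 libraries, with bars at the means of each set of 3. CYCD3-1 to CYCD3-3 is above 0 in the OE libraries alone, CDKB2 to CDKA1 is above 0 in CK1 alone, and CCS52A to CDKB2 is lowest in CK1 and highest in CK2.

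CYCB2-1 and CDKB2 stayed in closer proportion in the CK libraries than elsewhere. The FPKM of CDKB2 was 17.6 to 18.3 times that of CYCB2-1 in CK1 and 14.1 to 15.5 times in CK2, although both genes differed several-fold between these sets. In OE it was 20.2 times in OE9, 57.9 times in OE1 and 152 times in OE30, where CYCB2-1 was at most 0.12 FPKM and the ratio is uncertain. On the scale tested, log2(FPKM + 0.1), the OE libraries stood in another order. There the log2 ratio of CYCB2-1 to CDKB2 was −5.00 in OE1, −4.23 in OE9 and −3.88 in OE30. OE30 was thus above the CK1 libraries (−4.16 to −4.11) on that scale, though furthest below them as a plain ratio. The mean log2 ratio of CYCB2-1 to CDKB2 was −0.67 in OE relative to CK2 and −0.23 relative to CK1. Its sign turned with log2(FPKM + 1) in both, so no direction is given.

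Profiles over the 9 libraries were compared by the root mean square difference of log2(FPKM + 0.1), each gene being centred on its own mean, so that a smaller value means more alike. WEE1 and CYCD3-3 were most alike (0.22), and CYCD3-3 was also the gene closest to CDKB1 (0.23), where it ranked 5 among 26295 other gene models. CDKB2 and CYCB2-1 were closest to each other (0.39), with CYCB2-1 at rank 34 for CDKB2 and CDKB2 at rank 19 for CYCB2-1. These 5 genes formed the closest pairs of the list. CDKA1 and CYCD3-1 were closest to each other at 0.55, and CYCD3-1 ranked 11222 for CDKA1, so this likeness was weak. The nearest of the 8 genes to CCS52A was CYCD3-3 at 1.15 (rank 10194), so CCS52A followed none of the other genes. These are descriptions of 9 libraries in 3 sets and carry no test.

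Over the whole table, the gene models most like CDKB2, among those averaging at least 5 FPKM, were Solyc09g015170.3 (0.08) and Solyc06g072410.2.1 (0.22), which the files do not name. Solyc09g015170.3 was at 19.5 ± 0.912 FPKM (SD, n = 3) in CK1, 2.51 ± 0.221 FPKM (SD, n = 3) in CK2, and 1.81, 0.36 and 6.97 FPKM in OE1, OE30 and OE9. It was picked for its likeness to CDKB2 over these libraries, so the shared order of its levels is no separate result. The gene models most like CCS52A were Solyc07g041970.3 (0.10) and Solyc10g081920.2 (0.11). Solyc07g041970.3 was at 120.1 ± 0.964 FPKM (SD, n = 3) in CK1, 158.7 ± 0.562 FPKM (SD, n = 3) in CK2, and 37.4, 21.5 and 43.0 FPKM in OE1, OE30 and OE9.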

How the data were processed

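RNA-Seq of 9 tomato libraries (3 sets of 3, grouped by sample title) was analysed. For each library the authors deposited the FPKM of every gene model, given to 2 decimals. The log2 fold changes, p-values and q-values of their own comparisons, which stand beside them, were not used. The submitters' processing notes name RSEM 1.2.12, DESeq2 1.4.5, HISAT2 2.0.4 and Bowtie2 2.2.5, without roles. The build is SL3.0 in the file's positions and SL4.0 in the paper.

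Because FPKM values are not counts, limma 3.58.1 (limma-trend, R 4.3.3) was run on log2(FPKM + 0.1), with only the libraries compared. It covered gene models that reached 0.5 FPKM in 3 libraries of a fit. The fit was checked on simulated data in which both sets had the same spread. OE had a larger coefficient of variation than CK1 and CK2 for each of the 8 genes, so that check does not cover the p-values against OE. Fold changes of log2(FPKM + 0.1) are understated for low genes. Calls needed a fold change of 2 and a Benjamini-Hochberg adjusted p under 0.05 over all gene models tested. Ratios were tested by exact permutation. The remaining steps ran in pandas 2.3.3, numpy 2.4.6 and matplotlib 3.10.9 under Python 3.11.15. Alternatives were other added constants, no filter, no fold threshold, all 9 libraries in 1 fit, rescaled libraries, summed loci, a replicate block and leaving out each library. All gene models of the 8 loci are described, beside WRKY-B and, for CDKB2 and CCS52A, the 2 most alike gene models. The genes and lists were chosen with earlier results of these data known. The RefSeq table holds 41476 genes, of which 0 matched an ID of the file, so other cell cycle genes and tissue markers could not be listed and no sequences are shown.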

Additional observations from a re-analysis of the deposited data

How the results depend on the processing

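In OE against CK1 and in CK2 against CK1, all 8 genes kept their direction and their side of the threshold under every alternative of a fold change, and 6 were called in each, except that dropping the fold threshold raised the count to 8 in CK2 against CK1. In OE against CK2, 2 genes were called, 1 with median-ratio scaling, and 3 without the fold threshold, where CDKA1 was added. Values there crossed 0 for genes that were not called. WEE1 was at −0.17 with median-ratio scaling, and CYCD3-3 at 0.12 and CDKB1 at 0.19 when libraries were scaled to an equal sum. When each library was left out in turn, log2 fold changes ran from −0.52 to 0.25 for CDKB1, −1.39 to 0.54 for CDKB2, −0.58 to 0.32 for CYCD3-3 and −0.25 to 0.40 for WEE1. CDKB2, CDKB1 and CYCD3-3 turned positive without OE30, and CDKB1 also without OE1 and without CK2 replicate 2 (0.11). WEE1 turned negative without OE9 and without CK2 replicate 2 (−0.036). Without OE9 the count stayed at 2, but CYCB2-1 took the place of CYCD3-1. The log2 ratio of CYCB2-1 to CDKB2 turned to 0.074 against CK2 and 1.32 against CK1 with log2(FPKM + 1), and ran from −0.47 to 0.086 against CK1 when libraries were left out. The cause of these shifts was not tested. CK1 and CK2 share replicate numbers 1 to 3, but same-numbered libraries did not deviate together (r of −0.03, 0.01 and −0.01 across genes, which are not independent), and a replicate block left 6 calls. Depth is unknown, so the spread of 3 libraries is the only measure of noise in these values.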
